A study of Mus musculus with 10 samples.

Results

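The vacuolar proton pump (V-ATPase), its accessory proteins, the main lysosomal membrane proteins and the transcription factors that act on lysosomal genes were followed as 1 group of genes in the spinal cord of SOD1G86R mice. Members were taken by name: every protein-coding mouse gene whose symbol begins with Atp6v or Atp6ap, together with Lamp1, Lamp2, Scarb2, Cd164, Mcoln1, Clcn7, Tmem175, Tfeb, Tfe3 and Mitf. This gave 35 of the 32506 rows of the count table. Of 36 such genes in the annotation, 1 (Atp6v1g3, the renal form of subunit G) was not analysed here. The study sequenced RNA from the lumbar spinal cord of 5 SOD1G86R +/- and 5 wild type (WT) female FVB/N mice aged 95 days, 1 library per mouse, to describe how the transcriptome was altered in this mouse model of amyotrophic lateral sclerosis. SOD1G86R mice overexpress a mutant form of superoxide dismutase 1 from a transgene, had motor symptoms and muscle denervation at this age, and were compared with age- and litter-matched non-transgenic mice, all numbered here by the replicate numbers of the labels. All mice were perfused with cold PBS before the lumbar cord was dissected. In bulk tissue, fewer cells of a type and less RNA per cell cannot be told apart.

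The V-ATPase uses ATP to pump protons into lysosomes, endosomes, the Golgi and synaptic vesicles. Its V1 sector sits in the cytosol and hydrolyses ATP, its V0 sector forms the path of the protons through the membrane, and regulated separation of both sectors switches the pump off. Many subunits have paralogs that are used in different tissues. Neurons express the pump strongly because synaptic vesicles are loaded with transmitter by means of the proton gradient, and microglia use it to acidify the lysosomes in which engulfed material is degraded. TFEB, TFE3 and MITF, the MiT family of transcription factors, bind E-box letters in the promoters of many lysosomal and V-ATPase genes.

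The letters that these factors recognise stood in the promoter windows of 8 members. RefSeq (GRCm38.p6) gave windows of 250 bases before and 50 bases after the transcription start for 28 of the 35 members, and these were searched for CACGTG and for the longer TCACGTGA, which contains it. Both read the same on either strand. In 30 of the 37 windows of members the first 20 bases after the start lay in an annotated transcript of the gene. The windows of Lamp2, Atp6v0e2 and Atp6v0d1 were not among these, so their starts, and what was found or missed there, are less certain. CACGTG was found in 8 of 28 members (28.6%) and in 8.09% of the 27025 genes with a window, and TCACGTGA in 6 members (21.4%) and in 1.12% of genes. The 6 stretches of 30 bases around the longer letters are shown because they are where the shared sequence of these members can be seen, each 5′ to 3′ on the strand of the gene with TCACGTGA in capitals.
Atp6v1a (chr16:44139373-44139402, minus strand): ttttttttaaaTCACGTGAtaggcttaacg
Atp6v0d1 (chr8:105566050-105566079, minus strand): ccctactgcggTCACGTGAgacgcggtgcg
Atp6v0e (chr17:26676387-26676416, plus strand): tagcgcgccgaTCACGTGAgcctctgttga
Cd164 (chr10:41519401-41519430, plus strand): cgccgggctgcTCACGTGAccggcgcgcgc
Clcn7 (chr17:25133386-25133415, plus strand): ccgatgatagaTCACGTGAgacctgggcgc
Mcoln1 (chr8:3500462-3500491, plus strand): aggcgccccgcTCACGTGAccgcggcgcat
In Atp6v1a, which encodes the catalytic subunit of the pump, its CACGTG began 131 bases before the annotated start, in Cd164 87, in Mcoln1 45 and in Atp6v0d1 3 bases before it. In Atp6v0e and in Clcn7 it began 3 and 7 bases after the start. A match is a description of the letters only and does not show that a factor bound there.

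**Figure D1:**
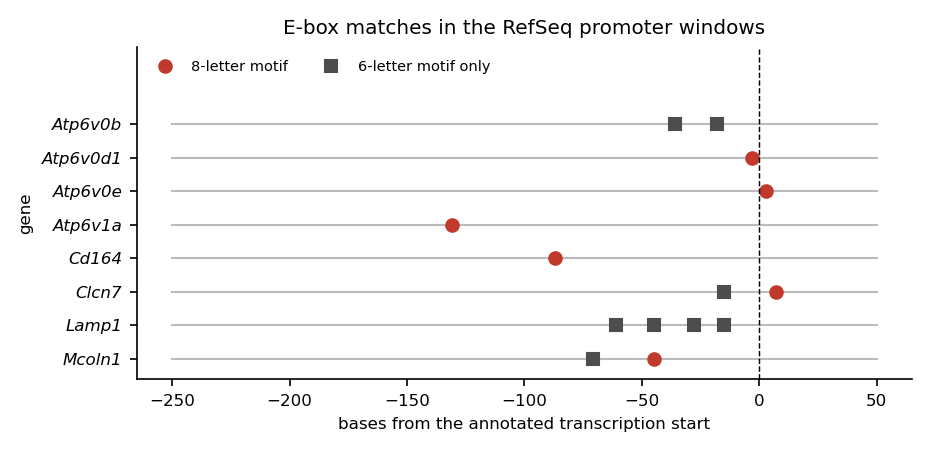
Position of each CACGTG outside the longer form (squares) and each TCACGTGA (circles) in the promoter windows of the 8 members that held one, in bases from the annotated start, with the window as a grey line. The 4 matches of Lamp1 all fell within 61 bases before the start.

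Lamp1 held 4 cores and Lamp2, its closest relative among the members, held none. The 250 bases before the start of both genes are set side by side because Lamp2 had the highest log2 fold change of the group, with CACGTG in capitals.
Lamp1 (chr8:13158911-13159160, plus strand): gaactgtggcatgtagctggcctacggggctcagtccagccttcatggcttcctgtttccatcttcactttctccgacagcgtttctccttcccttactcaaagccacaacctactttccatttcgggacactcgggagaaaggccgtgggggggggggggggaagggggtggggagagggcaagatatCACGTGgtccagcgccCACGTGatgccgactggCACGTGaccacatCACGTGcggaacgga
Lamp2 (chrX:38456461-38456710, minus strand): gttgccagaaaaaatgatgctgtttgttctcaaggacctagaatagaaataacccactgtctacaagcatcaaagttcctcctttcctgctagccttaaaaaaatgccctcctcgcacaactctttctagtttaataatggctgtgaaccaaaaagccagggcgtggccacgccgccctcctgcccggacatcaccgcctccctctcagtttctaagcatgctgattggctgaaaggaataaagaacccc
Atp6v0e2 and Atp6v1g2, the members with the smallest p-values after Lamp2, also held neither form. The 8 members with CACGTG had log2 fold changes from -0.094 (Atp6v0b) to 0.19 (Atp6v0e), 4 above 0 and 4 below 0, and none of them passed the test.

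The libraries held 29333590 to 46003999 counts in WT and 31494723 to 37080445 in SOD1G86R mice. Sod1 itself was at 127 to 209.8 CPM (counts-per-million, scaled by TMM) in WT and at 3918 to 6415 CPM in SOD1G86R mice, so that every library carried the level its label calls for. SOD1G86R mouse 4 stood apart from its group: the summed level of 10 microglial markers was 354 CPM there, 489 to 627 CPM in the other 4 SOD1G86R mice and 271 to 347 CPM in WT, and the summed level of 6 markers of dorsal root ganglion neurons was 60.1 CPM there and at most 3.75 CPM in every other library. Summed markers of motor neurons, which mark the ventral horn of the cord, were 132 to 179 CPM in WT. They were 213 CPM in SOD1G86R mouse 4 and 111 to 169 CPM in the other SOD1G86R mice. Summed markers of neurons were 9461 CPM in this mouse, 7302 to 8095 CPM in the other SOD1G86R mice and 8291 to 8682 CPM in WT. Results that rest on this mouse are therefore given with and without it.

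No member of the group passed the test between genotypes. After a filter on low counts 29 of the 35 members were tested among 16974 genes with edgeR's quasi-likelihood test, with Benjamini-Hochberg adjustment over all of these genes and an adjusted p below 0.01, the threshold of the study, as the call. Of the 29, 0 were called higher and 0 lower in SOD1G86R mice, where 0.866% of all tested genes were called higher and 0.253% lower. DESeq2 and limma voom also called 0 of 29, with lowest adjusted p-values of 0.0350 and 0.108, against 0.0845 in edgeR. At an unadjusted p below 0.05, 1 member was higher (Lamp2) and 2 were lower (Atp6v0e2 and Atp6v1g2), against 10.8% of all genes higher and 6.33% lower. Among the 29 tested members the groups of mice did not overlap for 1, Atp6v0e2, which was lower in every SOD1G86R mouse, against 1.84% of all genes lower and 3.09% higher in this sense, and for 0 members in the direction of higher values.

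The size of any difference was bounded closely for most members. Log2 fold changes of SOD1G86R over WT ran from -0.16 (Atp6ap1l) to 0.25 (Lamp2), 11 above 0 and 18 below, with a median of -0.034 against -0.0082 over all tested genes. The median size without sign was 0.072, against 0.098 over all tested genes. For the 28 members other than the scarce Atp6ap1l, the 95% intervals lay between -0.28 (Atp6v1d) and 0.43 (Atp6v0e) on the log2 scale, that is between 0.822 and 1.35 times the WT level. The interval included 0 for 26 members and left it out for Lamp2, Atp6v0e2 and Atp6v1g2. Without SOD1G86R mouse 4, 1 member was called higher, Lamp2, and 0 lower, when 4.55% of the 17184 genes tested were called higher and 0.5% lower.

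**Figure D2:**
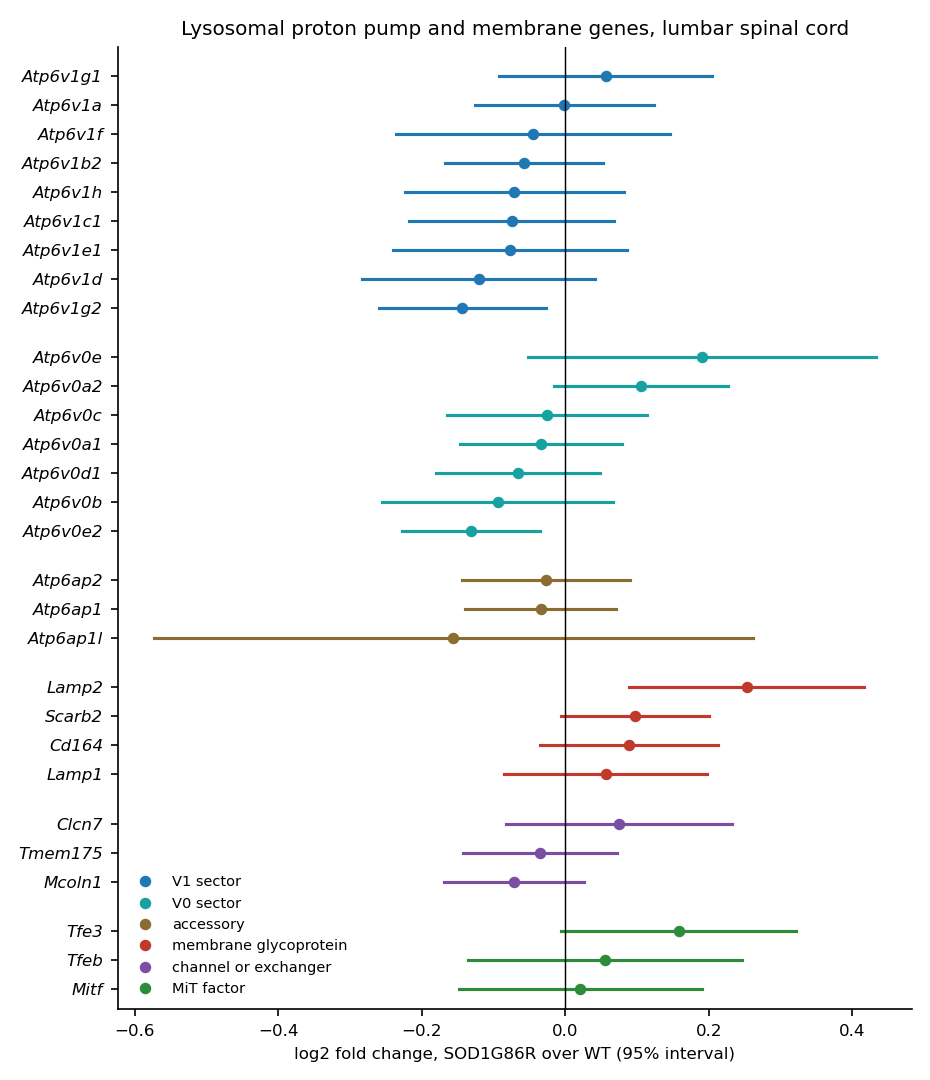
Log2 fold change of SOD1G86R over WT (points) with 95% intervals (lines) for the 29 tested members, coloured by role. All values lay between -0.16 and 0.25, 8 of 9 tested V1 genes lay below 0 and all 4 glycoproteins above 0. The interval left out 0 only for Lamp2, Atp6v0e2 and Atp6v1g2, and the median over all tested genes was -0.0082.

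The V1 sector was represented by 12 members, 9 of them tested, and none passed the test: 8 had log2 fold changes below 0 and 1 above, with a median of -0.071. Atp6v1a encodes subunit A, the catalytic subunit that hydrolyses ATP. Atp6v1a was at 493, 575, 532, 546 and 553 CPM in WT mice 1 to 5 and at 499.6, 538, 545, 589 and 525 CPM in SOD1G86R mice 1 to 5. The means were 539.8 ± 30.4 CPM in WT and 539 ± 32.9 CPM in SOD1G86R mice (SD, n = 5 each), and the groups covered nearly the same range, with a log2 fold change of -0.0013 (SE 0.0579, 95% interval -0.13 to 0.12, edgeR adjusted p = 0.994). Atp6v1b2 encodes subunit B, the non-catalytic partner of subunit A in the ring that binds ATP. Atp6v1b2 was at 692, 786, 735, 713 and 725 CPM in WT mice 1 to 5 and at 687, 707, 716, 735 and 664 CPM in SOD1G86R mice 1 to 5. SOD1G86R mice 1 and 5 were lower than every WT mouse and WT mouse 2 was the highest of all, with a log2 fold change of -0.057 (SE 0.0511, 95% interval -0.17 to 0.053, edgeR adjusted p = 0.621). Atp6v1d, part of the rotor that carries the force of ATP hydrolysis to the membrane, was at 182, 214, 203, 199 and 216 CPM in WT mice 1 to 5 and at 171, 197, 217, 179.6 and 167 CPM in SOD1G86R mice 1 to 5. SOD1G86R mice 1, 4 and 5 were lower than every WT mouse, mouse 3 was level with the highest WT mouse, and the comparison gave a log2 fold change of -0.12 (SE 0.0754, 95% interval -0.28 to 0.042, edgeR adjusted p = 0.453). Atp6v1h encodes the regulatory subunit H, which restrains ATP hydrolysis by V1 when it is detached. Atp6v1h was at 161, 185, 181, 178 and 196 CPM in WT mice 1 to 5 and at 156, 179, 196, 166 and 161 CPM in SOD1G86R mice 1 to 5. SOD1G86R mouse 1 was the lowest of all and mouse 3 was level with the highest WT mouse, with a log2 fold change of -0.071 (SE 0.0706, 95% interval -0.22 to 0.081, edgeR adjusted p = 0.660).

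Subunit G, which forms the outer stalks of the pump with subunit E, was the V1 subunit with the smallest p. Its brain form Atp6v1g2 (ENSMUSG00000024403, chr17:35233660-35238767 of GRCm38, plus strand) was at 322, 337, 308, 296 and 296 CPM in WT mice 1 to 5 and at 284, 288, 280.0, 299 and 261 CPM in SOD1G86R mice 1 to 5. SOD1G86R mice 1, 2, 3 and 5 lay below every WT mouse, whereas mouse 4 lay within the WT range. The means were 312 ± 17.5 CPM in WT and 282 ± 13.8 CPM in SOD1G86R mice (SD, n = 5 each), and the comparison gave a log2 fold change of -0.14 (SE 0.0541, 95% interval -0.26 to -0.026, edgeR adjusted p = 0.183). An exact two-sided permutation test of the mean log2 CPM of Atp6v1g2 gave an unadjusted p of 0.0238. Without SOD1G86R mouse 4 the log2 fold change was -0.17 and the edgeR adjusted p 0.0945. The widespread form Atp6v1g1 had a log2 fold change of 0.057 (95% interval -0.092 to 0.20). The annotated exons of Atp6v1g2 shared 144 bases with Nfkbil1, those of Atp6v1h 127 with Rgs20 and those of Atp6v1e1 32 with Slc25a18, all on the opposite strand. The other tested V1 genes, Atp6v1c1 (which holds V1 and V0 together), Atp6v1e1 (outer stalk) and Atp6v1f (rotor), had log2 fold changes of -0.075, -0.077 and -0.045, and all of their intervals included 0.

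V1 genes were high or low in the same mice. WT mouse 2 was the highest of its group in 7 of the 9 tested V1 genes and WT mouse 1 the lowest in 8. Among SOD1G86R mice, mouse 3 was the highest in 6 and mouse 5 the lowest in 6. The median deviation of the 9 genes from their WT mean, on the log2 scale, was 0.10 in SOD1G86R mouse 3. It was -0.13 in SOD1G86R mouse 1 and -0.20 in mouse 5, beside -0.12 in WT mouse 1 and 0.11 in WT mouse 2. This order was partly shared outside V1. WT mouse 2 was also the highest of its group in all 4 glycoproteins and in 3 of 7 tested V0 genes. SOD1G86R mouse 3 was the highest in 2 glycoproteins and 3 V0 genes, and mouse 5 the lowest in 0 and 3. Summed neuronal markers were 8291, 8640, 8481, 8492 and 8682 CPM in WT mice 1 to 5. In SOD1G86R mice 1 to 5 they were 7791, 8095, 7689, 9461 and 7302 CPM. SOD1G86R mouse 4, with the highest neuronal sum, had a median V1 deviation of -0.06. The part of neuronal markers in the V1 pattern was not tested.

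**Figure D3:**
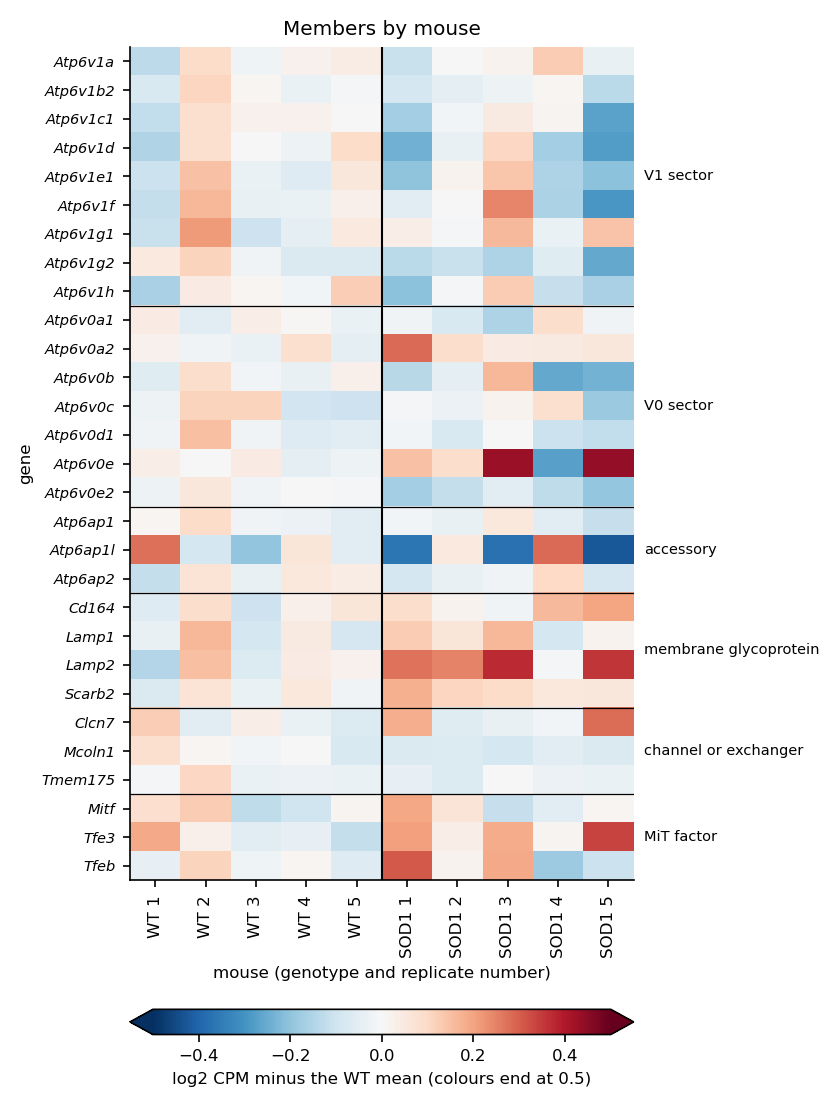
Log2 CPM of each tested member minus its WT mean (colour) in each of the 10 mice, with members grouped by role and the WT mice to the left of the black line. V1 genes were high together in WT mouse 2 and SOD1G86R mouse 3 and low together in WT mouse 1 and SOD1G86R mice 1 and 5. Lamp2 was above its WT mean in SOD1G86R mice 1, 2, 3 and 5.

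The V0 sector had 9 members, 7 of them tested, and none passed the test: 5 had log2 fold changes below 0 and 2 above. Atp6v0c encodes the proteolipid c, whose copies make up most of the rotating ring that carries protons. Atp6v0c was at 62.6, 68.8, 68.9, 59.7 and 59.3 CPM in WT mice 1 to 5 and at 63.3, 62.4, 64.5, 67.4 and 56.1 CPM in SOD1G86R mice 1 to 5, and the groups overlapped, with a log2 fold change of -0.026 (SE 0.0646, 95% interval -0.17 to 0.11, edgeR adjusted p = 0.879). A processed pseudogene, Atp6v0c-ps2, was listed with 967 to 1529 reads per library, so that reads may have been split between the copies and the level of Atp6v0c is uncertain. Atp6v0d1, which couples the ring to the V1 rotor, was at 217, 244, 217, 209.9 and 212 CPM in WT mice 1 to 5 and at 217, 208, 219.8, 204 and 202 CPM in SOD1G86R mice 1 to 5. WT mouse 2 stood above the other 9 libraries, and the comparison gave a log2 fold change of -0.066 (SE 0.0530, 95% interval -0.18 to 0.049, edgeR adjusted p = 0.573). Atp6v0b, the second kind of ring subunit, had a log2 fold change of -0.094 (95% interval -0.26 to 0.066).

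Subunit a provides the channels by which protons reach and leave the ring, and its paralogs direct the pump to different membranes. Atp6v0a1, the main form of neurons and synaptic vesicles, was at 369, 346, 367, 360.5 and 351 CPM in WT mice 1 to 5 and at 354, 340.3, 322, 382 and 354 CPM in SOD1G86R mice 1 to 5. The groups overlapped, with a log2 fold change of -0.034 (SE 0.0522, 95% interval -0.15 to 0.079, edgeR adjusted p = 0.788). Atp6v0a2, a form of the Golgi and endosomes, was at 112, 109, 108, 117 and 107 CPM in WT mice 1 to 5 and at 135, 117, 114, 114 and 115 CPM in SOD1G86R mice 1 to 5. SOD1G86R mouse 1 was higher than all other libraries, the other 4 lay between 114 and 117 CPM, near the highest WT mouse at 117 CPM, and the comparison gave a log2 fold change of 0.11 (SE 0.0563, 95% interval -0.016 to 0.23, edgeR adjusted p = 0.371). Tcirg1, which encodes the third form of subunit a, best known from osteoclasts and from the lysosomes of macrophages, does not carry the Atp6v name and was followed in the list of other V-ATPase genes. Tcirg1 was at 26.7, 20.5, 20.8, 21.1 and 19.8 CPM in WT mice 1 to 5 and at 32.2, 27.0, 28.7, 21.5 and 32.1 CPM in SOD1G86R mice 1 to 5. SOD1G86R mice 1, 2, 3 and 5 were above every WT mouse, and mouse 4 lay within the WT range. With all mice Tcirg1 did not pass the test (log2 fold change 0.38, SE 0.113, 95% interval 0.14 to 0.62, edgeR adjusted p = 0.0826). Without SOD1G86R mouse 4 it was called higher, with a log2 fold change of 0.46 and an edgeR adjusted p of 0.00604. In that fit 4.55% of all tested genes were called higher. Mouse 4 had the lowest Tcirg1 of its group, so leaving it out raises the group mean, and this call gives no independent support.

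Subunit e, a small membrane protein of V0, had paralogs with log2 fold changes on opposite sides of 0, as did subunits G and a. Atp6v0e2, the form enriched in brain (ENSMUSG00000039347, chr6:48537615-48541801 of GRCm38, plus strand), was at 247, 262, 249, 252 and 250.1 CPM in WT mice 1 to 5 and at 224, 232, 243, 231 and 220.4 CPM in SOD1G86R mice 1 to 5. Every SOD1G86R mouse was below every WT mouse, with SOD1G86R mouse 3 at 243 CPM and WT mouse 1 at 247 CPM closest to each other. The means were 252 ± 5.77 CPM in WT and 230.0 ± 8.62 CPM in SOD1G86R mice (SD, n = 5 each), with a log2 fold change of -0.13 (SE 0.0446, 95% interval -0.23 to -0.035, edgeR adjusted p = 0.131). The exact two-sided permutation test for Atp6v0e2 gave an unadjusted p of 0.00794, the smallest that the 252 assignments of 5 and 5 mice allow. Groups that do not overlap always give this value, so it adds nothing to the lack of overlap. DESeq2 gave an adjusted p of 0.0350. Atp6v0e, the widespread form, was at 24.2, 23.5, 24.3, 22.8 and 23.2 CPM in WT mice 1 to 5 and at 26.1, 25.1, 31.8, 19.5 and 32.0 CPM in SOD1G86R mice 1 to 5. SOD1G86R mice 1, 2, 3 and 5 were above every WT mouse and mouse 4 below every WT mouse, with a log2 fold change of 0.19 (SE 0.112, 95% interval -0.052 to 0.43, edgeR adjusted p = 0.423). Without SOD1G86R mouse 4 the log2 fold change of Atp6v0e was 0.28 with an edgeR adjusted p of 0.0480, above the threshold of 0.01.

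**Figure D4:**
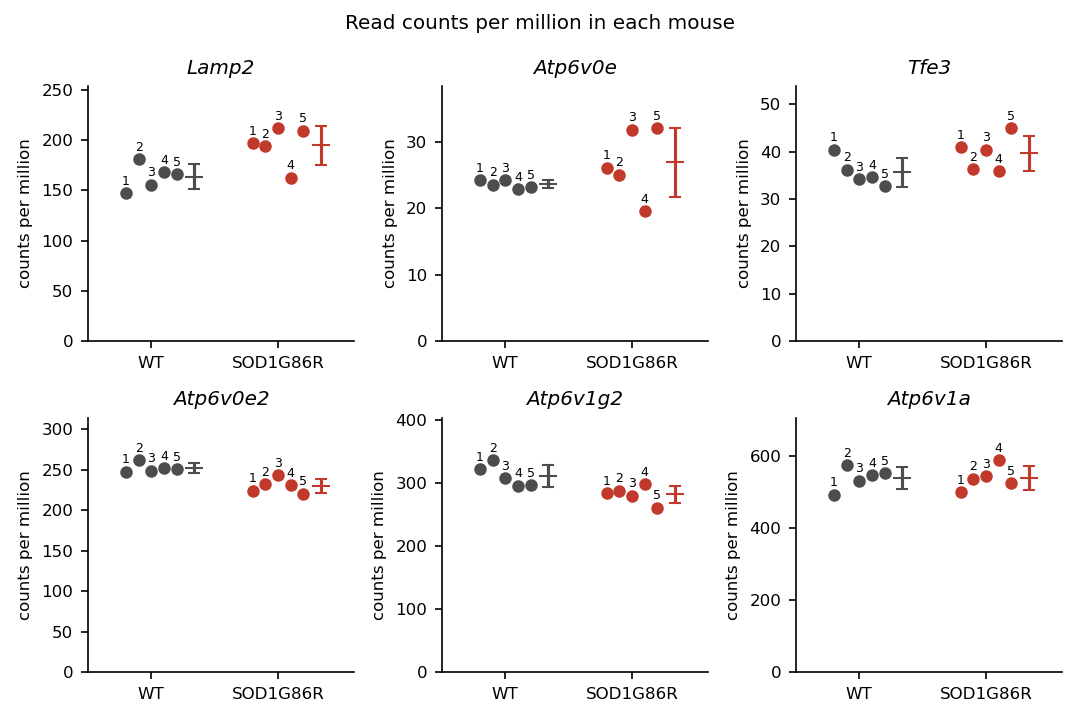
CPM of 6 members in each mouse (points, numbered by mouse) with the group mean and SD (bars, n = 5 per genotype). For Atp6v0e2 every SOD1G86R mouse lay below every WT mouse, for Lamp2 and Atp6v0e SOD1G86R mouse 4 lay well below the other 4, and Atp6v1a covered nearly the same range in both genotypes.

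The accessory proteins assist assembly and sorting of the pump, and none of the 3 passed the test. Atp6ap1 (Ac45) takes part in the assembly of V0 in the endoplasmic reticulum. Atp6ap1 was at 354, 374, 347, 345 and 338 CPM in WT mice 1 to 5 and at 348, 342, 364, 339 and 324 CPM in SOD1G86R mice 1 to 5, and the groups overlapped, with a log2 fold change of -0.034 (SE 0.0488, 95% interval -0.14 to 0.071, edgeR adjusted p = 0.773). Atp6ap2, known as the prorenin receptor, is needed for the same step. Atp6ap2 was at 187, 212, 197, 210.0 and 208 CPM in WT mice 1 to 5 and at 190.5, 197, 199.8, 217 and 191 CPM in SOD1G86R mice 1 to 5, again with overlap and a log2 fold change of -0.026 (SE 0.0542, 95% interval -0.14 to 0.090, edgeR adjusted p = 0.847). Atp6ap1l, a relative of Atp6ap1, was scarce, with 23 to 42 reads per library and a log2 fold change of -0.16 (SE 0.193, 95% interval -0.57 to 0.26, edgeR adjusted p = 0.734).

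Among the 4 glycoproteins of the lysosomal membrane, all log2 fold changes were above 0 and none passed the test, with a median of 0.093. Lamp2, one of the most abundant proteins of the lysosomal membrane, is needed for the fusion of autophagosomes with lysosomes, and its A form is the receptor of chaperone-mediated autophagy. Lamp2 (ENSMUSG00000016534, chrX:38401357-38456454 of GRCm38, minus strand) was at 148, 181, 156, 168 and 166 CPM in WT mice 1 to 5 and at 197, 194, 212, 163 and 209.5 CPM in SOD1G86R mice 1 to 5. SOD1G86R mice 1, 2, 3 and 5 were above every WT mouse, and mouse 4 lay in the middle of the WT range. The means were 164 ± 12.8 CPM in WT and 195 ± 19.6 CPM in SOD1G86R mice (SD, n = 5 each), with a log2 fold change of 0.25 (SE 0.0759, 95% interval 0.089 to 0.42, edgeR adjusted p = 0.0845). The exact two-sided permutation test for Lamp2 gave an unadjusted p of 0.0317. In the fit without SOD1G86R mouse 4 Lamp2 was called higher, with a log2 fold change of 0.31 (SE 0.0619) and an edgeR adjusted p of 0.00580. Mouse 4 had the lowest Lamp2 of its group, so leaving it out raises the group mean, and this call gives no independent support. Of the 10 fits that left out 1 library, no other called Lamp2, with edgeR adjusted p-values up to 0.2008. Summed microglial markers were 627, 489, 555, 354 and 536 CPM in SOD1G86R mice 1 to 5, lowest in the mouse with the lowest Lamp2, and 4 of the 10 microglial markers were called higher with all mice and 9 without mouse 4, against 0.866% and 4.55% of all genes. Their part in the Lamp2 value was not tested.

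Lamp1, the partner of Lamp2 in the lining of the lysosomal membrane, was at 793, 913, 766, 838 and 767 CPM in WT mice 1 to 5 and at 888, 848, 914, 765 and 824 CPM in SOD1G86R mice 1 to 5. WT mouse 2 reached the range of the highest SOD1G86R mice, and the comparison gave a log2 fold change of 0.056 (SE 0.0654, 95% interval -0.085 to 0.20, edgeR adjusted p = 0.717). Scarb2 encodes LIMP-2, the receptor that brings glucocerebrosidase to lysosomes. Scarb2 was at 308, 339, 316, 336 and 319.7 CPM in WT mice 1 to 5 and at 366, 348, 345, 335 and 337 CPM in SOD1G86R mice 1 to 5. WT mice 2 and 4 reached the level of SOD1G86R mice 4 and 5, with a log2 fold change of 0.10 (SE 0.0478, 95% interval -0.0062 to 0.20, edgeR adjusted p = 0.325). Cd164 encodes endolyn, a sialomucin of endosomes and lysosomes, and was at 122, 135, 118, 129 and 132 CPM in WT mice 1 to 5 and at 135, 129, 126, 142 and 146 CPM in SOD1G86R mice 1 to 5. SOD1G86R mice 4 and 5 were above every WT mouse and the other 3 lay within the WT range, with a log2 fold change of 0.089 (SE 0.0576, 95% interval -0.035 to 0.21, edgeR adjusted p = 0.471). For these 3 genes the upper bounds of the intervals were 0.20, 0.20 and 0.21 on the log2 scale. The exons of Lamp1 shared 249 bases with Grtp1 on the opposite strand. SOD1G86R mouse 4 was the lowest of its group in 3 of the 4 glycoproteins.

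Ion channels and exchangers of the lysosome were represented by Mcoln1, Clcn7 and Tmem175, none of which passed the test. Mcoln1 encodes TRPML1, through which calcium leaves the lysosome, and was at 61.9, 58.9, 58.0, 58.4 and 55.5 CPM in WT mice 1 to 5 and at 55.7, 55.7, 55.1, 56.4 and 55.6 CPM in SOD1G86R mice 1 to 5. All 5 SOD1G86R mice lay in a narrow band around the level of the lowest WT mouse, with a log2 fold change of -0.072 (SE 0.0452, 95% interval -0.17 to 0.026, edgeR adjusted p = 0.458). Clcn7, an exchanger of chloride for protons, had a log2 fold change of 0.075 (95% interval -0.082 to 0.23), and Ostm1, the subunit that Clcn7 requires, one of 0.015 (95% interval -0.11 to 0.14). Tmem175, a lysosomal channel that conducts potassium and protons, had a log2 fold change of -0.035 (95% interval -0.14 to 0.072), and its exons shared 2090 bases with Dgkq on the opposite strand, so that its level is uncertain.

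The 3 MiT transcription factors all had log2 fold changes above 0 and none passed the test. Their activity is known to be set largely by phosphorylation and by movement between cytosol and nucleus, which RNA does not show. Tfeb was at 25.9, 28.8, 26.2, 26.8 and 25.5 CPM in WT mice 1 to 5 and at 32.9, 26.9, 30.4, 23.5 and 24.7 CPM in SOD1G86R mice 1 to 5. SOD1G86R mice 1 and 3 were above and mice 4 and 5 below every WT mouse, with a log2 fold change of 0.056 (SE 0.0885, 95% interval -0.14 to 0.25, edgeR adjusted p = 0.795). Tfe3 was at 40.4, 36.2, 34.1, 34.5 and 32.7 CPM in WT mice 1 to 5 and at 41.0, 36.3, 40.4, 35.8 and 44.9 CPM in SOD1G86R mice 1 to 5. WT mouse 1 reached the level of SOD1G86R mice 1 and 3, and the comparison gave a log2 fold change of 0.16 (SE 0.0761, 95% interval -0.0064 to 0.32, edgeR adjusted p = 0.314). Mitf, the scarcest of the 3 per length, was at 15.3, 15.8, 13.3, 13.5 and 14.6 CPM in WT mice 1 to 5 and at 16.6, 15.2, 13.4, 13.9 and 14.6 CPM in SOD1G86R mice 1 to 5. The groups overlapped over nearly the whole range, with a log2 fold change of 0.021 (SE 0.0784, 95% interval -0.15 to 0.19, edgeR adjusted p = 0.925).

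A further 6 members were too scarce to be tested, among them the forms best known from kidney, testis and osteoclasts. Atp6v1b1, the form of subunit B of kidney and inner ear, and Atp6v1fnb had 0 reads in all 10 libraries, which allows up to 3 reads, or 0.0651 to 0.102 CPM, per library as counting error only. Atp6v0a4, the renal form of subunit a, and Atp6v1e2, the testis form of subunit E, had at most 8 and 5 reads in any library. Atp6v0d2, the form of subunit d of osteoclasts and kidney, had 0, 0, 0, 3 and 7 reads in WT mice 1 to 5 and 4, 1, 10, 0 and 10 reads in SOD1G86R mice 1 to 5. Atp6v1c2, a form of subunit C of kidney and lung, had 9, 11, 9, 6 and 7 reads in WT mice 1 to 5 and 4, 3, 4, 1 and 2 reads in SOD1G86R mice 1 to 5. Each SOD1G86R mouse was below each WT mouse for Atp6v1c2, at counts near the limit that these depths can measure, and in an edgeR fit without the filter its adjusted p was 0.0611. The exons of Atp6v1c2 shared 50 bases with Pdia6, an abundant gene on the opposite strand.

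Levels of different genes were compared only per length, as CPM divided by the annotated exon length in kilobases (RPKM) in WT. With the union of all exons as length, Lamp1 was the highest member at 305 ± 23.1 RPKM (SD, n = 5), followed by Atp6v1b2 at 138 ± 6.62 RPKM, and these held the first and second place with the longest transcript as length too. Atp6v1g2 at 124 ± 6.99 RPKM, Atp6v0d1 at 123 ± 7.64 RPKM and Atp6ap1 at 116 ± 4.57 RPKM came next, and the ranges of these 3 over the WT mice overlapped. Atp6ap1, at 112 to 124 RPKM, lay above the member after it, Atp6v0e2, at 104 to 110.0 RPKM. The catalytic subunit gene Atp6v1a was at 89.3 ± 5.04 RPKM and the ring gene Atp6v0c at 18.9 ± 1.40 RPKM. The MiT factors were 4.70 ± 0.229 (Tfeb), 3.84 ± 0.322 (Tfe3) and 2.34 ± 0.179 RPKM (Mitf). Lamp2 was at 17.2 ± 1.34 RPKM with the union and at 45.5 ± 3.56 RPKM with its longest transcript, so that its place among the members depended on the length used. The places after the second also depended on it. Atp6v0b held place 8 with the union and place 3 with the longest transcript, and Atp6v0d1 places 4 and 7.

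Where a subunit has several paralogs, the share of each in the RPKM of the subunit describes which form of the pump the cord expressed, and these shares are given without a test. Subunits B, C, d and E were almost entirely Atp6v1b2, Atp6v1c1, Atp6v0d1 and Atp6v1e1, each at no less than 99.59% in every library. Subunit G was divided, with 57.7 ± 2.03% from Atp6v1g2 in WT and 54.3 ± 2.62% in SOD1G86R mice (SD, n = 5 each), the rest being Atp6v1g1. The share of Atp6v1g2 was 60.4, 56.0, 59.1, 57.3 and 55.7% in WT mice and 54.9, 56.0, 52.3, 57.3 and 50.9% in SOD1G86R mice 1 to 5, lowest in SOD1G86R mouse 5. Of subunit a, Atp6v0a1 made up 72.1 ± 0.743% in WT and 69.1 ± 2.35% in SOD1G86R mice, Atp6v0a2 21.7 ± 0.663% and 22.9 ± 1.36%, and Tcirg1 6.22 ± 0.637% and 7.97 ± 1.26%. SOD1G86R mice 1, 2, 3 and 5 lay above every WT mouse in the share of Tcirg1 and below every WT mouse in that of Atp6v0a1, whereas mouse 4, at 5.84% and 72.9%, lay with the WT mice.

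The same mouse was the lowest of its group in the shares of Atp6v0e and Lamp2, but not in that of Tfeb. Atp6v0e made up 5.90, 5.45, 5.89, 5.49 and 5.62% of subunit e in WT mice and 6.96, 6.49, 7.75, 5.15 and 8.52% in SOD1G86R mice 1 to 5, the remainder being Atp6v0e2. Only SOD1G86R mouse 4 of that group was not above the WT range. Lamp2 made up 5.33 ± 0.272% of Lamp1 and Lamp2 together in WT and 6.05 ± 0.381% in SOD1G86R mice with the union length. With the longest transcripts the shares were 11.1 ± 0.529% and 12.5 ± 0.728%. With the union length the share was 5.85, 6.03, 6.10, 5.63 and 6.65% in SOD1G86R mice 1 to 5. It was 4.95 to 5.71% in WT, so that mouse 4 lay close to SOD1G86R mouse 1. Tfeb made up 43.2 ± 1.82% of the RPKM of the MiT factors in WT and 42.1 ± 3.19% in SOD1G86R mice, with Tfec, the macrophage form, at 0 to 11 reads per library. The share of Tfeb was lowest in SOD1G86R mouse 5 at 37.5%, with mouse 4 at 40.3%.

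**Figure D5:**
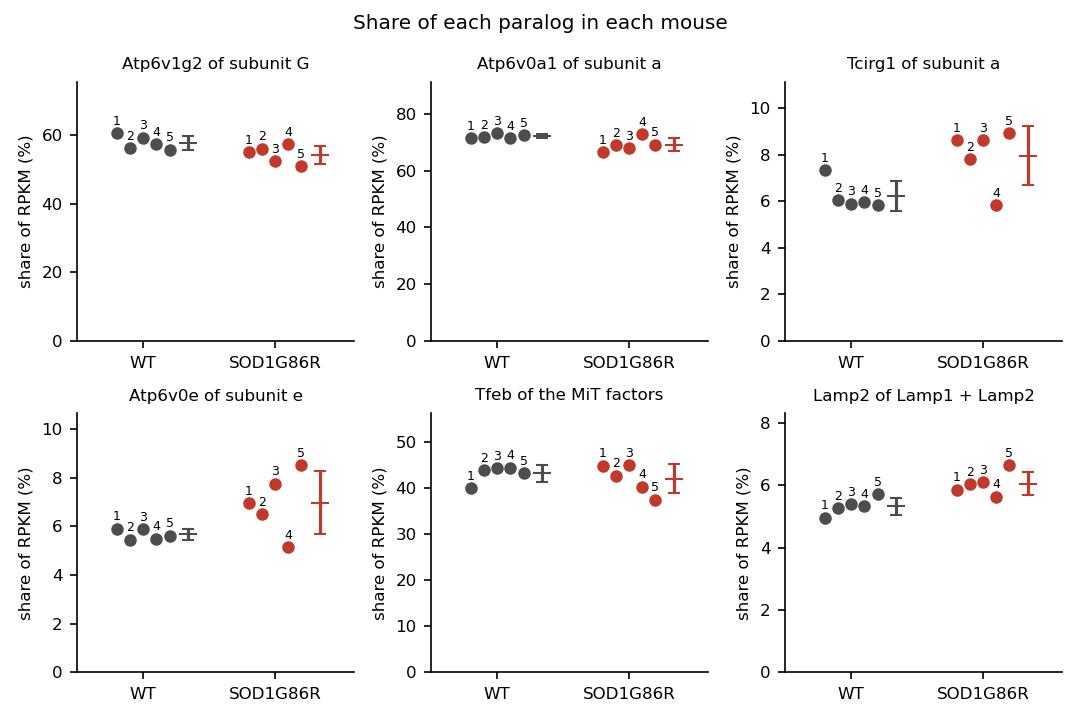
Share (%) of a paralog in the summed RPKM of its family in each mouse (points, numbered by mouse), with group mean and SD (bars, n = 5 per genotype) and the union of exons as gene length. SOD1G86R mice 1, 2, 3 and 5 lay above all WT mice in the shares of Tcirg1, Atp6v0e and Lamp2, and mouse 4 lay at 5.15% for Atp6v0e, below the WT mice.

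Lists of other genes place the members among their partners. Of 16 tested V-ATPase genes that lack the name, assembly factors and regulators, 0 were called higher and 0 lower, with a median log2 fold change of 0.042. Without SOD1G86R mouse 4, 1 was called higher, Tcirg1, and 0 lower, against 4.55% and 0.5% of all genes. After Tcirg1, the smallest p-values belonged to Rogdi, a protein of the RAVE-like complex that rejoins V1 and V0, and Dmxl1, another protein of that complex. Rogdi was at 80.3 ± 5.67 CPM in WT and 71.3 ± 2.97 CPM in SOD1G86R mice (SD, n = 5 each), with a log2 fold change of -0.17 (SE 0.0570, 95% interval -0.29 to -0.049, edgeR adjusted p = 0.121). Every SOD1G86R mouse was below every WT mouse for Rogdi, as for 1.84% of all tested genes. The groups all but touched, with SOD1G86R mouse 3 at 75.07 CPM and WT mouse 5 at 75.08 CPM. Dmxl1 had a log2 fold change of 0.19 and an edgeR adjusted p of 0.400. Of 27 tested genes that place TFEB under the control of mTORC1 and calcineurin at the lysosome, 0 were called in either direction, with a median of -0.015. The smallest p in this list belonged to Nprl2, a subunit of the GATOR1 complex that restrains mTORC1, at 35.3 ± 1.35 CPM in WT and 31.6 ± 1.56 CPM in SOD1G86R mice (SD, n = 5 each) with a log2 fold change of -0.16 (SE 0.0546, 95% interval -0.27 to -0.038, edgeR adjusted p = 0.146). Fnip1 and Rptor, partners of folliculin and of mTOR, had log2 fold changes of 0.15 and 0.12, with edgeR adjusted p-values of 0.242 and 0.290.

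Of 32 tested other lysosomal membrane proteins, 1 was called higher, Cd68, and 0 lower, against 0.866% and 0.253% of all genes, with a median of 0.021. Cd68 is a glycoprotein of the lysosomes of microglia and macrophages. Cd68 was at 6.51, 6.89, 4.71, 5.74 and 5.88 CPM in WT mice 1 to 5 and at 27.9, 17.9, 27.9, 8.46 and 24.6 CPM in SOD1G86R mice 1 to 5. Every SOD1G86R mouse was above every WT mouse, with mouse 4 the lowest of its group, and the comparison gave a log2 fold change of 1.85 (SE 0.295, 95% interval 1.19 to 2.51, edgeR adjusted p = 0.00917). Without SOD1G86R mouse 4, 4 genes of this list were called higher and 0 lower, against 4.55% and 0.5% of all genes. These were Cd68, Slc11a1 and Laptm5, all known from macrophages and microglia, and the tetraspanin Cd63, named here after their values were seen.

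Among marker genes of 10 cell types, 4 of 10 microglial markers were called higher and 1 of 4 tested Schwann cell markers, Egr2, against 0.866% of all tested genes, and of the 44 tested markers of the other 8 types 0 were called in either direction. Without SOD1G86R mouse 4, 3 of 7 astrocyte markers (Gfap, Aqp4 and Aldh1l1), 1 of 4 tested osteoclast markers (Dcstamp), 9 of 10 microglial markers and Egr2 were called higher, against 4.55% of all genes tested in that fit. No marker was at 0 in all libraries. Summed astrocyte markers were 7166 to 8532 CPM in WT, 7933 CPM in SOD1G86R mouse 4 and 9774 to 11860 CPM in the other SOD1G86R mice. Most of this difference was Gfap, at 2232 to 3076 CPM in WT, 2418 CPM in SOD1G86R mouse 4 and 4443 to 6075 CPM in the others, and the median log2 fold change of the 7 markers was 0.032. Summed oligodendrocyte markers were 36760 to 41690 CPM in WT and 33100 to 37570 CPM in SOD1G86R mice. Summed markers of osteoclasts, the cells best known for Tcirg1, were 12.3 to 14.6 CPM in WT and 8.51 to 12.7 CPM in SOD1G86R mice. Ctsk made up most of this sum, with a log2 fold change of -0.47 and an edgeR adjusted p of 0.117, while Acp5 and Dcstamp had log2 fold changes of 0.32 and 1.45 and the median of the list was 0.012. The part of these cell types in the values of Lamp2, Tcirg1, Atp6v0e and Atp6v0e2 was not tested.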

How the data were processed

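Lumbar spinal cord RNA of 5 SOD1G86R and 5 WT female mice was analysed from the deposited table of read counts per Ensembl gene. Alignment by the authors was to the mm10 assembly (TopHat2 2.0.14), and HTSeq 0.6.1 assigned the reads to genes of Ensembl release 81, giving raw counts without normalisation. Whether counting used strand is not given in the sources used here, so exons shared with a gene on the opposite strand make a level uncertain. Symbols came from GENCODE M21 on GRCm38 and matched 32247 of 32506 rows. Genes were filtered with filterByExpr, scaled by TMM and tested with edgeR 4.0.16 (quasi-likelihood, robust, genotype as the only term) over all 10 libraries, in R 4.3.3, with Benjamini-Hochberg adjustment over all tested genes and a threshold of 0.01. Standard errors were the size of the log2 fold change divided by the square root of its F statistic, and 95% intervals used the t distribution. CPM used the TMM library sizes, and permutation tests were run on log2 CPM after adding a prior count of 2. RPKM were computed with exon lengths of the same annotation.

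Alternatives were DESeq2 1.42.0, limma 3.58.1 (voom), other scalings, filters and thresholds, and each library left out in turn. The labels do not say whether mice with the same replicate number were paired, and the main test used no pairing. Full values are given for members whose groups did not overlap, for the 10 with the smallest p-values and for 14 chosen by role, and other members by their ranges. Members, gene lists and markers were chosen with earlier results of these data known, and so do not give independent support for a direction. No protein sequence was used here, and Atp6v1g3 was not analysed here.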

Additional observations from a re-analysis of the deposited data

Results flagged for a closer look

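Of 58 groups of 5 libraries examined over the 29 tested members, 3 held a library whose gap to its nearest neighbour was a larger part of the range of its group than Dixon's 95% critical value of 0.71 allows, and chance flags about 1 in 20 groups. Atp6v0a2, a form of subunit a of the pump, was highest in SOD1G86R mouse 1 at 135 CPM with the next mouse at 117 CPM, a gap of 0.819 of the range. Atp6v0d1, the subunit that couples the ring to V1, was highest in WT mouse 2 at 244 CPM with the next at 217 CPM (0.776 of the range). Tmem175, the lysosomal potassium and proton channel, was highest in the same WT mouse at 36.2 CPM with the next at 33.5 CPM (0.788 of the range). WT mouse 2 was also the highest of its group in 7 of 9 tested V1 genes and in all 4 glycoproteins.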

How the results depend on the processing

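For the 21 members described in full, 10 settings that left out no library gave 210 values, of which 207 kept their direction, 3 changed sign and 0 passed the threshold. The sign changes were all of Atp6v1a, whose log2 fold change of -0.0013 became 0.0007 with RLE scaling, 0.0050 without Sod1 and Gm8566 and 0.0059 without a filter on low counts. Leaving out 1 library at a time gave 196 values of the same direction, 13 of changed sign and 1 past the threshold, Lamp2 without SOD1G86R mouse 4. The log2 fold changes that changed sign ranged from -0.053 to 0.010 for Atp6v0c, from -0.036 to 0.025 for Atp6v1a, from -0.025 to 0.054 for Mitf and from -0.014 to 0.11 for Tfeb, and their edgeR adjusted p-values stayed above the threshold. The members called higher numbered 0 to 1 over these fits. Over all genes, the calls higher ranged from 12 to 782 and those lower from 19 to 86, with the highest of both without SOD1G86R mouse 4. At a threshold of 0.05 edgeR called 654 higher and 127 lower, without robust shrinkage 254 higher, DESeq2 722 higher and 107 lower, and limma voom 29 higher, against 147 and 43 in the fit reported. The cause of these differences between tools was not tested.

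The labels do not say whether mice with the same replicate number were paired, by litter or otherwise. Deviations of mice with the same number correlated at 0.052, 0.261, -0.138, 0.060 and -0.37, which cannot settle whether they were. Of the 10 libraries, 1 correlated best with the library of its own number. With a replicate block edgeR called 109 genes higher and 31 lower, and 0 members in either direction. With the longest transcript as length, the share of Atp6v1g2 in subunit G was 64.5% in WT and 61.3% in SOD1G86R mice. Counts of a few reads limited the scarce paralogs.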
